A study of Mus musculus with 3 samples.

Results

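The genes described here are 6 connexins, *Gja1*, *Gjb6*, *Gjb2*, *Gjb1*, *Gjc3* and *Gjd2*, out of 32285 genes listed in the count matrices and 20 connexin genes among them. They were taken by name and followed across astrocytes, oligodendrocytes, meningeal fibroblasts, ensheathing glia and neurons, with each cell class defined by genes other than connexins. The counts come from single-nucleus RNA sequencing of sorted prefrontal cortex nuclei, in a study of *Nav1*, a gene whose product binds microtubules in developing neurons. There were 3 libraries, 1 for each group, and all came from male mice of 6 to 8 weeks. The C57BL/6J library was made from wild-type C57BL/6 mice (5 animals pooled), the *Nav1* KO library from mice with a CRISPR deletion in *Nav1* on the same C57BL/6 background (4 animals pooled), and the BTBR library from the inbred strain BTBR T<+> Itpr3<tf>/J, whose number of animals is not given in the sources used here. With 1 library in a group no difference between groups could be tested, and pooled animals leave no spread between mice to set a difference against. Genotype, strain and library preparation cannot be told apart.

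Connexins are membrane proteins that dock in the gap between neighboring cells and form channels, called gap junctions, through which ions and small molecules pass. In the brain, astrocytes couple to one another mainly through connexin 43 (*Gja1*) and connexin 30 (*Gjb6*), and the cells of the meninges use connexin 43, connexin 30 and connexin 26 (*Gjb2*). Myelinating oligodendrocytes carry connexin 32 (*Gjb1*) and connexin 29 (*Gjc3*), and connexin 36 (*Gjd2*) forms the electrical synapses between neurons, above all between inhibitory interneurons.

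On the mouse GRCm38 assembly, the build of the deposited matrices, *Gja1* lies at chr10:56377330-56402513 on the plus strand and *Gjb1* at chrX:101376378-101385629 on the plus strand. The other 4 genes lie on the minus strand, *Gjb2* at chr14:57098600-57104702, *Gjb6* at chr14:57123303-57133611, *Gjc3* at chr5:137953461-137963098 and *Gjd2* at chr2:114009601-114013619. *Gjb2* and *Gjb6* are neighbors, 18600 bases apart, with 1 annotated protein-coding gene, *Gm4491*, between them. The promoters of 3 of the genes are shown because these are the connexins whose levels are compared between astrocyte-like and fibroblast-like nuclei. Each is the 250 bases before the RefSeq start on GRCm38.p6, 5′ to 3′ on the strand of the gene, with capitals marking the motifs that were searched. For *Gja1* this is chr10:56377050-56377299, for *Gjb6* chr14:57133612-57133861 and for *Gjb2* chr14:57104703-57104952.
*Gja1*: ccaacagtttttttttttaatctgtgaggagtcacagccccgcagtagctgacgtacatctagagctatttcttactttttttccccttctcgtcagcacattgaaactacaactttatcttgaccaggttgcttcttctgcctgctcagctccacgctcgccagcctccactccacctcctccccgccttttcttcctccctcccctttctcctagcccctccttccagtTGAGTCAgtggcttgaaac
*Gjb6*: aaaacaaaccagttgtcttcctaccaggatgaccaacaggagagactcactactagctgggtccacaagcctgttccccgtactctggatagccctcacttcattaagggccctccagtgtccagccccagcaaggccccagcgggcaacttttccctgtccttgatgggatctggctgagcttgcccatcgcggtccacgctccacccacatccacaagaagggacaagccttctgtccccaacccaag
*Gjb2*: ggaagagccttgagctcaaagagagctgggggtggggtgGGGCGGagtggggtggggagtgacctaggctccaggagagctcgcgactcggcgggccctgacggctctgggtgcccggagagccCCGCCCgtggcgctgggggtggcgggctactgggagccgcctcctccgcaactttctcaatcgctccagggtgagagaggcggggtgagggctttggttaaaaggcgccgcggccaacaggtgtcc
The motifs were the GC box GGGCGG, the TATA box TATAAA and the AP-1 site TGAGTCA, each read on both strands. *Gja1* held 1 AP-1 site, starting 19 bases before its RefSeq start, a motif that 4.46% of 32851 promoter windows of the same length held. The *Gjb2* window held 2 GC boxes, 211 and 126 bases before the start, a motif found in 32.7% of windows. No searched motif was in the *Gjb6* window, and the TATA box, present in 12.4% of windows, was in none of these 3. GC content was 50.0% for *Gja1*, 56.8% for *Gjb6* and 69.2% for *Gjb2*, against a median of 52.4% over all windows. These matches describe letters and were not tied to any count.

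After filtering, 43463 nuclei remained, with medians of 2074 (C57BL/6J), 2754 (*Nav1* KO) and 2510 (BTBR) unique molecular identifiers (UMIs, 1 for each RNA molecule counted) per nucleus. The labels call all samples neurons, and clusters named as neurons made up 62.4%, 64.9% and 61.1% of nuclei. Glial, meningeal and endothelial nuclei were present in every library. Nuclei left without a name made up 24.4%, 9.99% and 21.1%. Their largest clusters, of 4607 and 2955 nuclei, held 541 and 643 CPM of the excitatory neuron gene *Slc17a7* and may hold further neurons. The cluster of 2955 nuclei also had the striatal medium spiny neuron markers *Rgs9* and *Penk* among its leading genes, with 112 CPM of the inhibitory marker *Gad1*. The study's methods describe a sort that collected NeuN+ and NeuN- nuclei in a set proportion for the C57BL/6J and *Nav1* KO samples, so these shares are not those of the tissue. Nuclei of olfactory bulb neurons and of ensheathing glia, which the cortex does not hold, differed between libraries, and the ensheathing glia-like class had 26 nuclei in the C57BL/6J library against 418 and 102 in those of *Nav1* KO and BTBR. *Nav1* itself was at 345, 264 and 146 CPM, but the deletion is in the first exon and the counts come from the 3′ ends of transcripts, so the value in the *Nav1* KO library does not check the deletion. Between 55 and 66 cell barcodes were shared by each pair of libraries.

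Classes were named from marker lists. The astrocyte-like cluster (1355 nuclei) was led by *Aqp4*, *Ntsr2* and *Fgfr3*, the oligodendrocyte-like cluster (918) by *Mag*, *Mbp* and *Ermn*, the oligodendrocyte precursor-like cluster (711) by *Cspg4*, *Pdgfra* and *Vcan*, and the ensheathing glia-like cluster (546) by *Fabp7*, *Prss56*, *Apod* and *Frzb*. There were 2 meningeal fibroblast-like clusters, 1 led by the GABA transporter gene *Slc6a13* with *Ranbp3l* and *Dcn* (934 nuclei) and 1 led by *Slc47a1* with *Foxd1* and *Bnc2* (803 nuclei). RNA of excitatory neurons was in all of them. *Slc17a7*, the vesicular glutamate transporter of excitatory neurons, was at 829 CPM in excitatory neuron-like nuclei, 131 in astrocyte-like, 182 in the *Slc6a13* cluster, 294 in the *Slc47a1* cluster, 347 in ensheathing glia-like, 334 in precursor-like and 418 in oligodendrocyte-like nuclei. A level is given in CPM, the summed counts of the gene scaled to a fixed total of all counts in the nuclei of a class, with the exact 95% Poisson interval, which covers counting error only.

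Among the named classes *Gja1*, the connexin 43 gene, had its highest level in astrocyte-like nuclei in all 3 libraries, and meningeal fibroblast-like and ensheathing glia-like nuclei followed. In astrocyte-like nuclei *Gja1* stood at 436 CPM (376 to 503) in C57BL/6J, 502 (458 to 549) in *Nav1* KO and 664 (605 to 727) in BTBR. BTBR was above the others with no overlap of intervals, while those of C57BL/6J and *Nav1* KO overlapped. Over both fibroblast-like clusters *Gja1* was at 268 CPM (223 to 318), 312 (286 to 340) and 463 (415 to 515) in the same order. BTBR was again the highest, and its interval lay clear of the rest. Summed over libraries, the level of *Gja1* in fibroblast-like nuclei was 0.633 times that in astrocyte-like nuclei (0.580 to 0.690), and the ratio was 0.614, 0.622 and 0.697 in the 3 libraries. The *Slc6a13* and *Slc47a1* clusters held it at 323 CPM (289 to 360) and 354 CPM over the libraries, a ratio of 0.913 (0.797 to 1.04). By library this ratio was 0.953 and 0.997 in C57BL/6J and *Nav1* KO, with intervals that held 1, and 0.670 (0.534 to 0.838) in BTBR. The order of the classes rested on how nuclei were assigned. With the marker UMIs of each nucleus in place of clusters, the fibroblast to astrocyte ratio was 1.88. Of the 4403 nuclei then called astrocyte-like, 27.9% were in the astrocyte-like cluster, at 548 CPM of *Gja1*. Another 16.6% were in excitatory clusters at 8.05 CPM. Of those called fibroblast-like 83.0% were in the fibroblast-like clusters. Under finer clustering, where 191 of the *Slc47a1* nuclei moved to a mixed cluster with 476 CPM of *Slc17a7*, the *Slc47a1* nuclei that were left held 522 CPM of *Gja1*, 0.961 times the astrocyte level (0.865 to 1.07). In BTBR they stood next to the astrocyte-like nuclei, at 708 CPM against 664, a ratio of 1.06 with an interval that held 1 (0.892 to 1.27).

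Outside these classes *Gja1* was low. Endothelial-like nuclei held 94.7 CPM (48 counts in 237 nuclei), oligodendrocyte precursor-like nuclei 37.7, oligodendrocyte-like nuclei 18.4 and neurons 7.65 CPM. The astrocyte to neuron ratio was 71.0 (64.4 to 78.2). Astrocyte-like nuclei held 1.41 *Gja1* counts for each count of *Aqp4*, the astrocyte water channel gene. At that proportion precursor-like nuclei would hold 37.7 CPM of *Gja1*, which was the level measured, and neurons would hold 4.07 CPM. Fibroblast-like nuclei would hold 10.4 CPM against the 343 measured, and ensheathing glia-like nuclei 41.7 against 233. The makeup of free RNA was not measured, and its part in these levels was not tested.

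**Figure D1:**
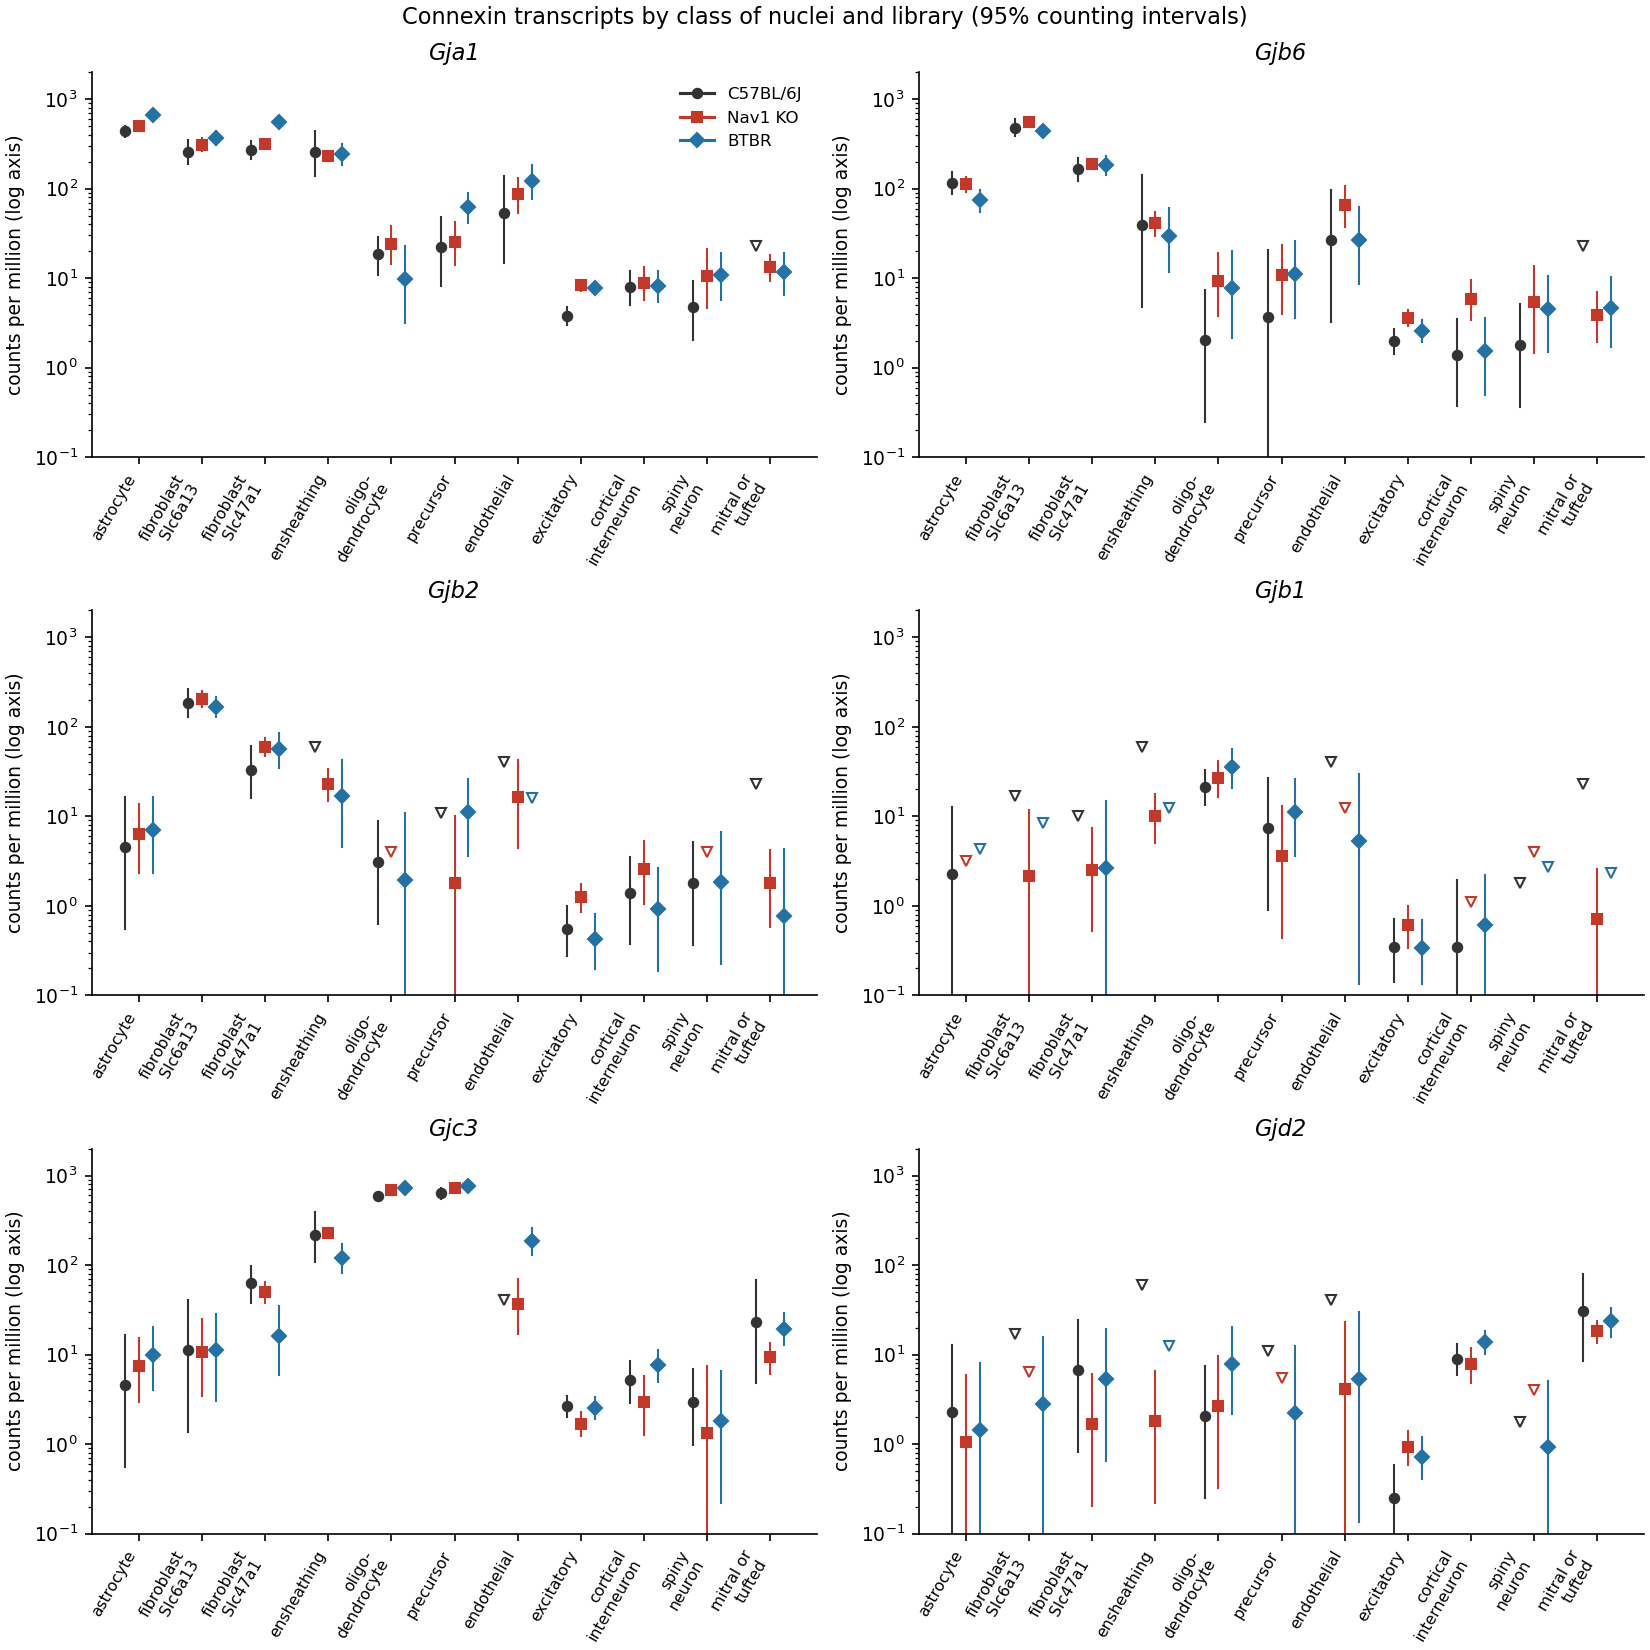
Level of each of the 6 connexins, in CPM on a log axis, by cell class, with 1 panel per gene. Black circles are C57BL/6J, red squares *Nav1* KO and blue diamonds BTBR, bars are exact 95% counting intervals, and an open triangle marks a class with 0 counts, drawn at the level 3 counts would give. *Gja1* stands high in astrocyte-like, fibroblast-like and ensheathing glia-like nuclei, *Gjb6* and *Gjb2* in the *Slc6a13* fibroblast-like cluster, *Gjb1* and *Gjc3* in the oligodendrocyte lineage, and *Gjd2* in olfactory bulb mitral or tufted-like and cortical interneuron-like nuclei.

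*Gjb6* and *Gjb2*, the connexin 30 and connexin 26 genes, were higher in fibroblast-like than in astrocyte-like nuclei, the reverse of *Gja1* in the clusters. In the *Slc6a13* cluster *Gjb6* stood at 479.7 CPM (383 to 593) in C57BL/6J, 553 (487 to 624) in *Nav1* KO and 439.9 (374 to 514) in BTBR. The 3 intervals overlapped, and no library stood apart. In astrocyte-like nuclei *Gjb6* was at 117 CPM (87.1 to 154), 112 (91.5 to 135) and 74.1 (55.3 to 97.2). BTBR was the lowest here and overlapped the others. The *Slc47a1* cluster lay between, at 166, 191 and 185 CPM. Over all fibroblast-like nuclei *Gjb6* was 2.95 times its astrocyte level (2.53 to 3.45), and the ratio was 2.41, 2.63 and 4.18 in the 3 libraries. Taken alone, the *Slc6a13* cluster was 4.99 times the astrocyte level (4.24 to 5.89) and the *Slc47a1* cluster 1.85 times (1.56 to 2.21).

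Of the named classes *Gjb2* was highest in fibroblast-like nuclei and low in astrocyte-like nuclei. In the *Slc6a13* cluster its level was 186 CPM (128 to 262) in C57BL/6J, 205 (166 to 250) in *Nav1* KO and 168 (128 to 216) in BTBR, from 33, 96 and 60 counts. These intervals overlapped. In the *Slc47a1* cluster it was at 33.2 CPM (15.9 to 61.1), 59.9 (46.8 to 75.6) and 56.3 (34.8 to 86.0), each below the *Slc6a13* value of the same library with no overlap. Astrocyte-like nuclei held 13 counts in all, 4.59, 6.32 and 7.12 CPM. The fibroblast to astrocyte ratio was 16.3 (9.40 to 31.0), and it was 19.6, 16.0 and 15.6 by library.

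The *Slc6a13* fibroblast-like cluster held 2.69 times the *Gjb6* level of the *Slc47a1* cluster (2.34 to 3.10) and 3.43 times its *Gjb2* level (2.69 to 4.41), in the same direction in all 3 libraries. Their *Slc17a7* levels differed too, at 182 and 294 CPM, and under the finer clustering the ratios were 1.80 for *Gjb6* and 2.20 for *Gjb2*, while *Gja1* was then lower in the *Slc6a13* cluster at 0.616 times (0.535 to 0.709). The part of neuronal RNA in these ratios was not tested.

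Whether members shared nuclei within a class was read after random thinning to 1000 UMIs, with shallower nuclei left out. Then 27 of 953 astrocyte-like nuclei held both *Gja1* and *Gjb6*. *Gjb6* was in 7.78% of the astrocyte-like nuclei with *Gja1* and 9.90% of those without. By library the shares were 9.09% and 13.7% in C57BL/6J, 7.59% and 9.74% in *Nav1* KO, and 7.35% and 7.19% in BTBR. In the *Slc6a13* cluster only 419 of 934 nuclei were this deep, 36 from C57BL/6J, 237 from *Nav1* KO and 146 from BTBR. There the shares were 39.3% and 35.6%, and 52.0% of nuclei held at least 1 of the pair. By library the shares were 28.6% and 13.8%, 47.4% and 41.1%, and, in the other direction, 30.2% and 32.0% in BTBR. *Gjb2* was in 19.6% of *Slc6a13* nuclei with *Gjb6* and 13.5% of those without. In the *Slc47a1* cluster *Gjb2* was in 9.86% and 4.78%. These shares describe nuclei from 3 libraries and were not tested.

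The share of nuclei with a UMI followed the levels. At 1000 UMIs *Gja1* was found in 36.4% of astrocyte-like nuclei (exact Clopper-Pearson interval 33.3 to 39.6) and 0.783% of excitatory neuron-like nuclei, whose median depths before thinning were 1307 and 2831 UMIs. *Gjb6* was in 27.2% of fibroblast-like nuclei (24.6 to 30.0), 9.13% of astrocyte-like nuclei and 0.322% of excitatory neuron-like nuclei, and fibroblast-like nuclei had a median depth of 1171 UMIs. *Gjb2* was in 9.69% of fibroblast-like nuclei (7.99 to 11.6) and 0.0870% of excitatory neuron-like nuclei. The excitatory values are given for comparison, and whether they are background was not tested. Without thinning the shares were 45.7% for *Gja1* in astrocyte-like nuclei, and 33.5% and 13.4% for *Gjb6* and *Gjb2* in fibroblast-like nuclei.

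Ensheathing glia wrap the olfactory nerve fibers, and as a class their nuclei held *Gja1* and *Gjc3*. *Gja1* was at 257 CPM (137 to 440.1) in C57BL/6J, 229 (202 to 259) in *Nav1* KO and 242 (184 to 313) in BTBR, from 13, 252 and 58 counts, and the intervals overlapped. This was 0.429 times the astrocyte level (0.378 to 0.485), with 0.590, 0.457 and 0.365 by library. *Slc17a7* was at 347 CPM in ensheathing glia-like and 131 in astrocyte-like nuclei, and the part of neuronal RNA in this ratio was not tested. In the closing section the ratio is higher as the mean over nuclei and with the marker UMIs of each nucleus. It is lower there without nuclei that held markers of another class. *Gjc3* was at 218, 229 and 121 CPM, the last with an interval of 81.1 to 174. At the proportion of *Gjc3* to *Mag*, a myelin gene, seen in oligodendrocyte-like nuclei, ensheathing glia-like nuclei would hold 30.5 CPM of *Gjc3* against 210.2 measured. Precursor-like nuclei, with 43.9 *Gjc3* counts for each *Mag* count, have another proportion, and the part of free RNA was not tested. *Gjb6* stood at 38.9 CPM over the libraries, 0.388 times its astrocyte level (0.282 to 0.526). *Gjb2* was at 20.9 CPM, with 25 counts in *Nav1* KO, 4 in BTBR and 0 in C57BL/6J, where only 26 nuclei were measured. At 1000 UMIs, *Gjc3* was found in 21.3% of ensheathing glia-like nuclei with *Gja1* and in the same share of those without. Both genes were in 23 of 465 such nuclei, of which 367 came from *Nav1* KO and 18 from C57BL/6J.

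In the oligodendrocyte lineage *Gjc3*, the connexin 29 gene, was high in precursor-like and oligodendrocyte-like nuclei alike, while *Gjb1*, the connexin 32 gene, was lower in the precursors. In oligodendrocyte-like nuclei *Gjc3* was at 593 CPM (546 to 644) in C57BL/6J, 695 (636 to 757) in *Nav1* KO and 721 (649 to 799) in BTBR. In precursor-like nuclei it was at 633 (542 to 735), 734 (664 to 809) and 768 (689 to 853). The intervals of the 2 classes overlapped in each library. The ratio of precursors to oligodendrocytes was 1.10 (1.02 to 1.20) over the libraries and 1.07, 1.06 and 1.06 within them, each with an interval that held 1. The summed ratio lay above that of every library. C57BL/6J, with the lowest *Gjc3* level in both classes, gave 422 of 918 oligodendrocyte-like and 175 of 711 precursor-like nuclei. The interval of the summed ratio does not cover this mix of libraries.

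This order depended on which nuclei were called oligodendrocytes. Under the finer clustering the 918 oligodendrocyte-like nuclei divided into 467 with 1579 CPM of *Gjc3* and 194 CPM of *Slc17a7*, and 451 in a mixed cluster with 393 CPM of *Gjc3* and 482 CPM of *Slc17a7*. Their median depths were 923 and 3122 UMIs. Precursor-like nuclei divided in the same way into 512 with 1142 CPM of *Gjc3* and 198 mixed nuclei with 384. The precursor to oligodendrocyte ratio was then 0.717 (0.645 to 0.796), and it was below 1 in every library at 0.627, 0.715 and 0.751. The *Gjc3* level in the 467 nuclei was 1544, 1627 and 1576 CPM in the 3 libraries, which were closer to one another than in the coarser class. The part that mixed nuclei play in the first order was not tested beyond this split.

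**Figure D2:**
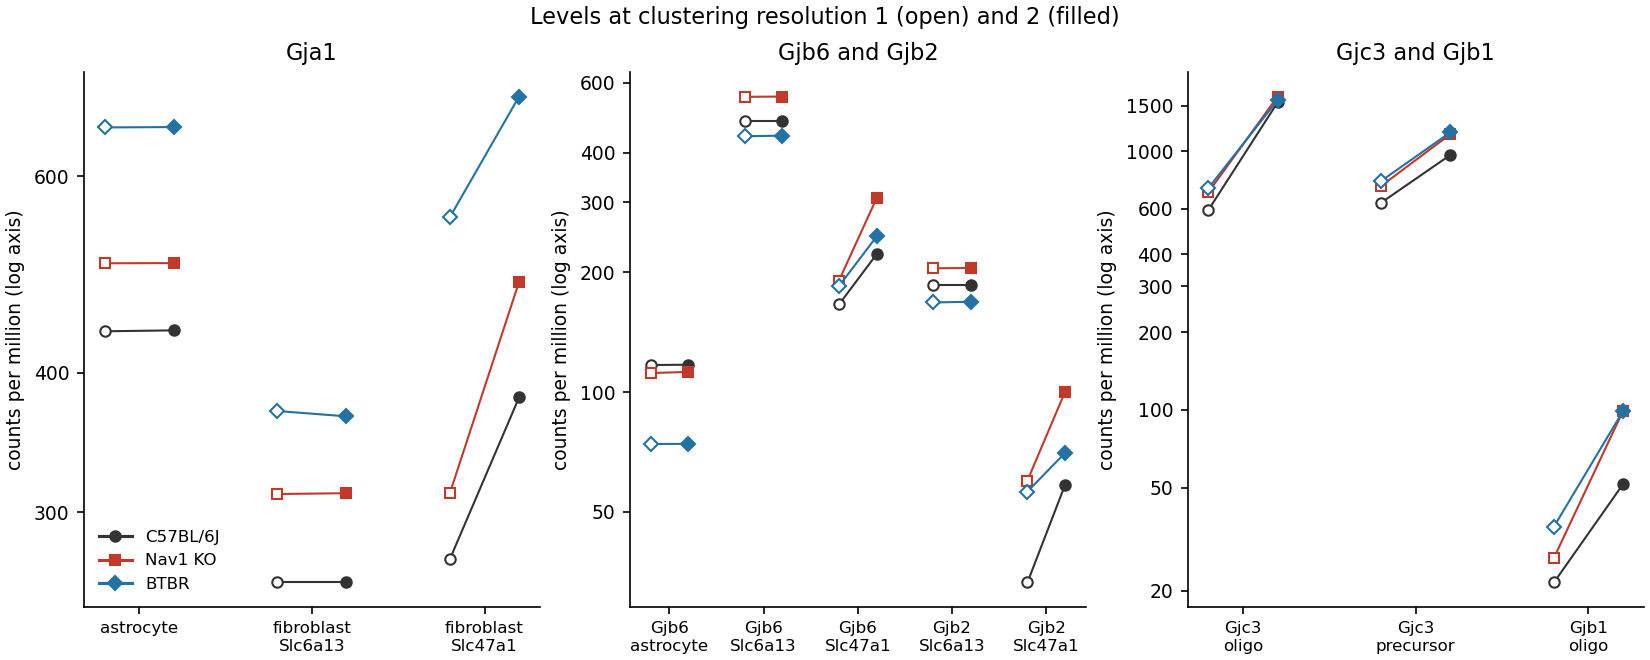
Levels of the connexins in CPM on a log axis in the glial and fibroblast-like classes at clustering resolution 1 (open symbols) and 2 (filled symbols, the finer clustering), with black circles for C57BL/6J, red squares for *Nav1* KO, blue diamonds for BTBR and lines joining the values of a library. *Gjc3* in oligodendrocyte-like nuclei moves from between 593 and 721 CPM to between 1544 and 1627, and *Gjb1* from between 21.5 and 35.4 to between 51.6 and 99.0, while the astrocyte-like levels of *Gja1* and *Gjb6* stay in place.

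*Gjb1* was at 21.5 CPM (13.3 to 32.9) in C57BL/6J, 26.8 (16.4 to 41.4) in *Nav1* KO and 35.4 (21.0 to 55.9) in BTBR in oligodendrocyte-like nuclei, from 21, 20 and 18 counts. The intervals overlapped and no library stood apart. The level was 61.4 times that in neurons (40.0 to 95.3). Precursor-like nuclei held 9 counts, 7.07 CPM, or 0.267 times the oligodendrocyte level (0.117 to 0.543). In the 467 nuclei of the finer clustering *Gjb1* was at 78.6 CPM and the precursor ratio 0.110. Ensheathing glia-like nuclei held 11 *Gjb1* counts, all in the *Nav1* KO library, and astrocyte-like nuclei 1. At 1000 UMIs *Gjb1* was in 2.89% of oligodendrocyte-like nuclei (1.72 to 4.53) against 0.0573% of neurons, with median depths of 1442.5 and 2646 UMIs, and *Gjc3* in 42.7% (38.8 to 46.7) against 0.266% of excitatory neuron-like nuclei.

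*Gjd2*, the connexin 36 gene, was low in cortical excitatory neurons and higher in interneurons and in olfactory bulb output neurons. Olfactory bulb mitral or tufted-like nuclei, led by *Eomes*, *Cdhr1* and *Doc2g*, held 30.7 CPM (8.38 to 78.7) in C57BL/6J, 18.2 (13.5 to 23.9) in *Nav1* KO and 23.4 (15.8 to 33.4) in BTBR, from 4, 51 and 30 counts. Cortical interneuron-like nuclei held 8.99 CPM (5.87 to 13.2), 7.76 (4.80 to 11.9) and 13.8 (10.0 to 18.4). The intervals overlapped between libraries in both classes. Excitatory neuron-like nuclei held 5, 23 and 15 counts in the 3 libraries, 0.250, 0.928 and 0.718 CPM.

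Over the libraries, cortical interneuron-like nuclei held 15.8 times the excitatory level of *Gjd2* (10.9 to 23.3) and mitral or tufted-like nuclei 30.8 times (21.1 to 45.5). All inhibitory neuron-like nuclei together were 11.3 times above excitatory ones (7.91 to 16.4), with 24.6, 7.04 and 12.9 by library. The inhibitory groups differed among themselves. The 1670 striatal medium spiny neuron-like nuclei, which are GABAergic projection neurons, held 1 count. Not among them was the unnamed cluster of 2955 nuclei with *Rgs9* and *Penk* among its leading genes, which held 1.51 CPM of *Gjd2*. In C57BL/6J and *Nav1* KO medium spiny nuclei had 0 counts. With a floor of 3 counts in their place, cortical interneurons were 5.05-fold and 1.93-fold higher. These values are not lower bounds, since the exact intervals on the measured counts began at 3.82 and 1.44. In BTBR, where medium spiny nuclei had 1 count, the ratio was 15.0 (2.56 to 607). Of 2 olfactory bulb interneuron-like clusters, the 1 led by the dopamine synthesis gene *Th* with *Trh* held 20.7 CPM and the other 3.28 CPM, a ratio of 6.32 (2.24 to 20.3). These were 13 and 6 counts. The ratio was 6.07 (1.39 to 36.4) in *Nav1* KO and 3.19 in BTBR, with an interval that held 1 (0.428 to 23.8). C57BL/6J had 3 counts in 13 nuclei and 0 counts. Among excitatory groups, layer 5-like nuclei were at 1.88 CPM, layer 6-like at 0.733 and layer 2/3-like at 0.479, with overlapping intervals for neighbors in that order.

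At 1000 UMIs *Gjd2* was found in 3.50% of mitral or tufted-like nuclei, 1.23% of cortical interneuron-like nuclei and 0.0563% of excitatory neuron-like nuclei, whose median depths were 3151, 2544 and 2831 UMIs. With this few counts per nucleus, a nucleus without a *Gjd2* UMI is not shown to lack the gene. On the other strand the long noncoding gene *A530058N18Rik* overlaps the start of *Gjd2*. As listed in the matrices it begins at 114013602, and *Gjd2* reaches 114013619. The shared stretch is thus short and at the 5′ end of *Gjd2*, while the counts come from the 3′ ends of transcripts. Whether the counting used strand is not given in the sources used here. The part of reads from that stretch in the *Gjd2* counts was not tested.

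**Figure D3:**
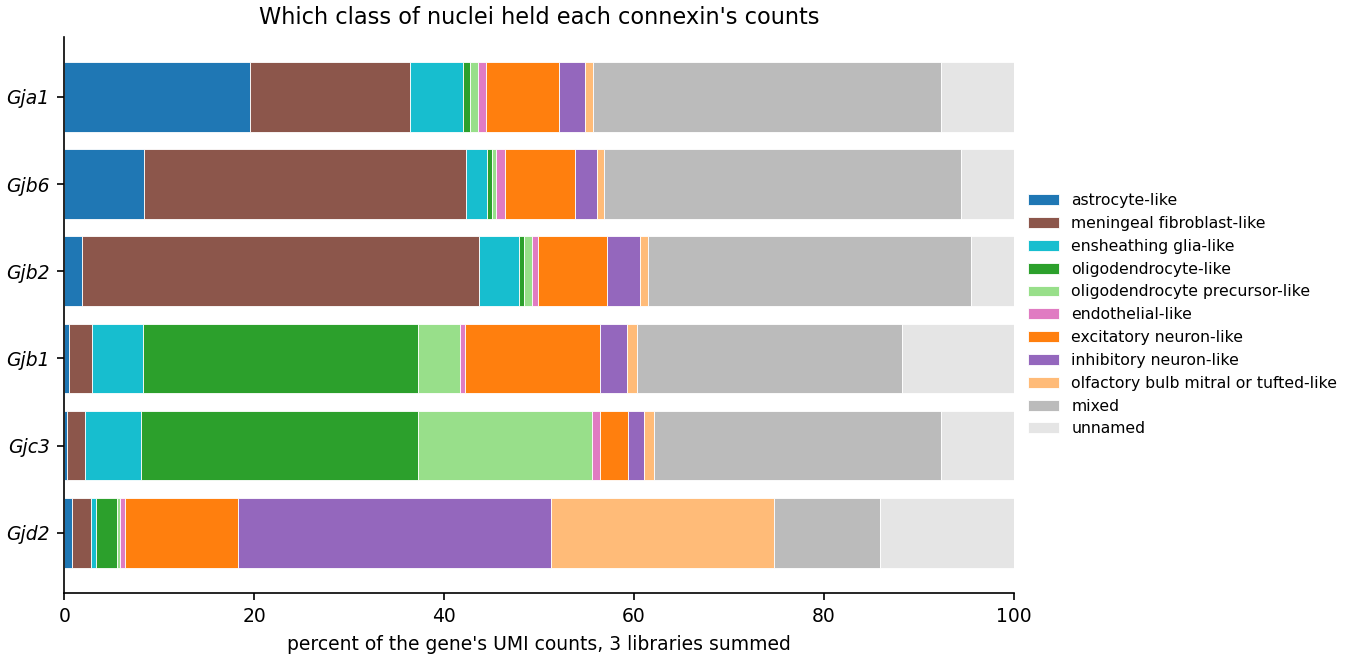
Share of each connexin's counts, in percent of all its counts over the 3 libraries, by the class of nucleus that held them. Fibroblast-like nuclei hold 41.8% of *Gjb2* and 33.9% of *Gjb6* counts, and clusters that mixed markers of several classes hold between 11.1% (*Gjd2*) and 37.6% (*Gjb6*).

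The members had 5800 (*Gja1*), 5019 (*Gjc3*), 2492 (*Gjb6*), 696 (*Gjb2*), 361 (*Gjd2*) and 204 (*Gjb1*) counts in all kept nuclei. Of the *Gja1* counts 19.5% lay in astrocyte-like and 16.9% in fibroblast-like nuclei, and 36.7% lay in mixed clusters, so mixed clusters held more of this gene than any 1 named class. Oligodendrocyte-like nuclei held 29.2% of *Gjc3* and 28.9% of *Gjb1* counts, and precursor-like nuclei another 18.4% of *Gjc3*. *Gjd2* was spread over inhibitory neuron-like (33.0%), mitral or tufted-like (23.5%) and excitatory neuron-like nuclei (11.9%).

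Between libraries, members were compared within a class as the ratio of levels over C57BL/6J, for members with at least 20 counts in a pair of libraries. In astrocyte-like nuclei 0 of 2 members were past 1.5-fold in *Nav1* KO, where 26.0% of all genes with as many counts were. *Gja1* was 1.15 times (0.971 to 1.37) and *Gjb6* 0.955 times (0.677 to 1.36) its C57BL/6J level. In BTBR both were past 1.5-fold, in opposite directions, where 29.0% of genes were. There *Gja1* was 1.52 times (1.28 to 1.81) and *Gjb6* 0.633 times (0.422 to 0.951) the C57BL/6J level.

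In fibroblast-like nuclei 0 of 4 members were past 1.5-fold in *Nav1* KO (26.6% of genes) and 2 of 4 in BTBR (30.1%). *Gja1* was 1.17 times (0.959 to 1.43) in *Nav1* KO and 1.73 times (1.41 to 2.14) in BTBR. Within the *Slc6a13* cluster the BTBR ratio of *Gja1* was 1.42 (1.01 to 2.04) and within the *Slc47a1* cluster 2.02 (1.56 to 2.65), so it was above 1 in both. *Gjb2* was 1.12 times (0.799 to 1.61) and 1.23 times (0.842 to 1.83), intervals that held 1. *Gjb6* was 1.04 (0.857 to 1.27) and 1.10 times (0.882 to 1.37). These totals pool clusters whose mix differed between libraries, 216, 373 and 345 nuclei of the *Slc6a13* cluster and 166, 446 and 191 of the *Slc47a1* cluster. *Gjb6* was 1.15 and 0.917 times within the *Slc6a13* cluster and 1.15 and 1.11 times within the *Slc47a1* cluster. *Gjb2* was 1.10 and 0.903 times within the *Slc6a13* cluster. All these intervals held 1. *Gjc3*, low in this class, was 0.881 times in *Nav1* KO and 0.312 times (0.131 to 0.692) in BTBR. By cluster, 0 of 3 members of the *Slc6a13* cluster were past 1.5-fold in either library (34.0% and 32.7% of genes), and 1 of 4 and 3 of 4 in the *Slc47a1* cluster (30.4% and 31.1%). In the *Slc47a1* cluster *Gjb2* was past it in both, at 1.80 (0.926 to 3.92) and 1.69 times (0.763 to 4.03). These intervals held 1, and C57BL/6J had 10 counts. The others in BTBR were *Gja1* and, lower, *Gjc3* at 0.255 times (0.0832 to 0.663). The *Slc47a1* cluster also held mixed nuclei, and after the finer clustering removed 191 of them the BTBR ratio of *Gja1* was 1.86 (1.39 to 2.51). In the *Slc6a13* cluster it was then 1.41, with an interval that held 1 (0.999 to 2.02).

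In oligodendrocyte-like nuclei 0 of 3 members were past 1.5-fold in *Nav1* KO (25.5% of genes) and 2 of 3 in BTBR (27.4%). *Gjc3* was 1.17 times (1.04 to 1.32) and 1.22 times (1.06 to 1.39), and these ratios were 1.03 and 1.02 as means over nuclei. *Gjb1* was 1.24 times (0.640 to 2.41) and 1.64 times (0.826 to 3.24), intervals that held 1. *Gja1*, low in this class, was 1.31 (0.641 to 2.66) and 0.533 times (0.155 to 1.49), the latter from 5 counts in BTBR and 18 in C57BL/6J. Its intervals held 1 too. The 2 members past 1.5-fold in BTBR were thus *Gjb1*, higher, and *Gja1*, lower. In precursor-like nuclei *Gjc3* was 1.16 times (0.968 to 1.39) and 1.21 times (1.01 to 1.47), and 0 of 2 members (29.1% of genes) and 1 of 2 (29.8%) were past 1.5-fold. The latter was *Gja1*, at 2.82 times (1.15 to 8.34) from 6 and 28 counts. In ensheathing glia-like nuclei 0 of 4 members were past it in *Nav1* KO (39.7%) and 1 of 2 in BTBR (43.8%), where *Gjc3* was 0.556 times (0.270 to 1.23) against 26 nuclei in C57BL/6J. Of the 4, *Gjb2* had 25 counts in *Nav1* KO and 0 in C57BL/6J. At the floor of 3 counts it could not be called, and *Gjb6* rested on 2 counts in C57BL/6J. The count of 0 therefore draws no conclusion.

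**Figure D4:**
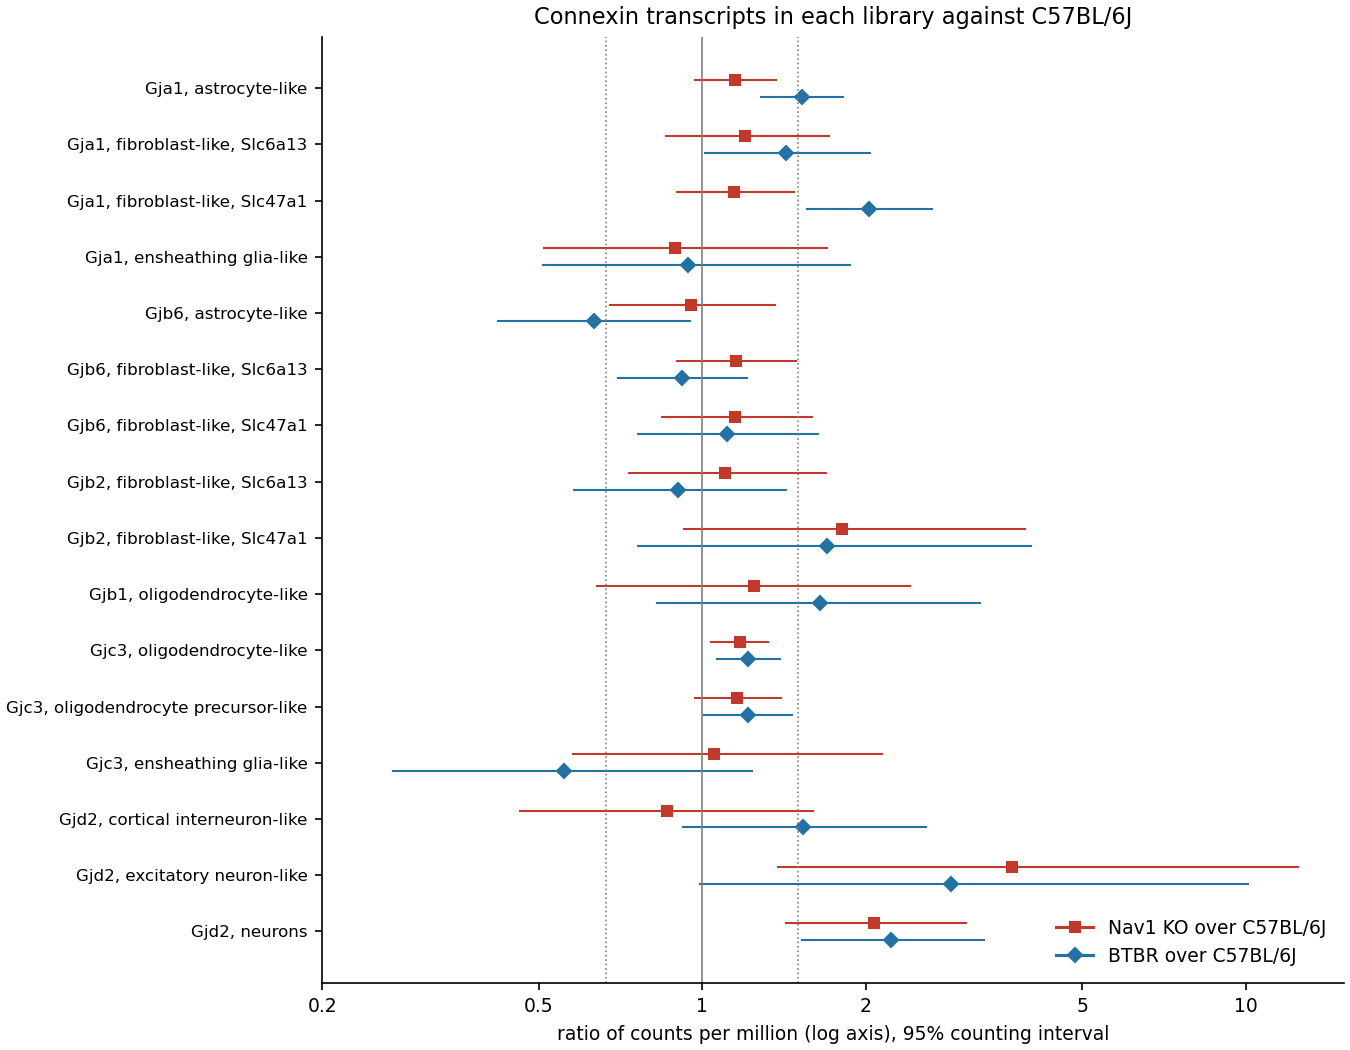
Ratio of each connexin's level to that in C57BL/6J, on a log axis, by class, for *Nav1* KO and BTBR, with exact 95% counting intervals and dotted lines at 1.5-fold. *Gja1* in BTBR lies above 1 in astrocyte-like nuclei (1.52) and in both fibroblast-like clusters (1.42 and 2.02), and *Gjd2* over all neurons lies at 2.07 and 2.22 while its cortical interneuron ratios lie at 0.863 and 1.53.

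In neurons 5 of 6 members were past 1.5-fold in *Nav1* KO (17.2% of genes) and 2 of 6 in BTBR (22.2%). The 5 were *Gja1*, *Gjb6*, *Gjb2*, *Gjb1* and *Gjd2*, all higher. *Gjb1* among them, at 1.63 times from 17 and 8 counts, had an interval that held 1 (0.666 to 4.36). Those in BTBR were *Gja1* and *Gjd2*, also higher. *Gja1* was at 4.30 CPM in C57BL/6J neurons, 9.48 in *Nav1* KO and 8.50 in BTBR, ratios of 2.21 (1.77 to 2.77) and 1.98 (1.57 to 2.51). Over all nuclei of each library *Gja1* was at 22.5, 50.2 and 48.4 CPM, so for this gene neurons and whole libraries differed in the same direction. *Aqp4* in the same neurons was at 2.11, 3.66 and 2.68 CPM, and *Slc6a13* at 1.07, 2.71 and 2.21. The same held for *Gjb6*, at 1.91, 4.18 and 2.64 CPM in neurons and 10.6, 26.3 and 15.2 CPM in whole libraries. It held too for *Gjb1*, at 0.318, 0.518 and 0.428 CPM in neurons and 1.14, 1.55 and 1.66 in whole libraries. It did not hold throughout for *Gjc3* and *Gjb2*. *Gjc3* was at 3.26, 2.56 and 4.21 CPM in neurons and 31.8, 37.8 and 38.0 in whole libraries, so *Nav1* KO went the other way. *Gjb2* was at 0.716, 1.40 and 0.607 CPM in neurons and 2.74, 7.87 and 3.86 in whole libraries, so BTBR did. The part of released RNA in these ratios was not tested.

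*Gjd2* in neurons was at 1.59 CPM (40 counts), 3.29 (108 counts) and 3.53 (99 counts), ratios of 2.07 (1.43 to 3.05) and 2.22 (1.52 to 3.29). C57BL/6J had the fewest mitral or tufted-like nuclei, 35, and the lowest *Gjd2* level. *Nav1* KO had 598 such nuclei and BTBR 322, while the *Gjd2* level was slightly higher in BTBR. Without the olfactory bulb-like neurons, a choice made after seeing the data, the *Nav1* KO ratio was 1.24 (0.777 to 2.00) and the BTBR ratio 1.84 (1.19 to 2.90). The part of cell composition in these ratios was not tested further. Within cortical interneuron-like nuclei *Gjd2* was 0.863 times (0.462 to 1.60) in *Nav1* KO and 1.53 times (0.924 to 2.58) in BTBR, intervals that held 1. There 2 of 4 members (15.3% of genes) and 1 of 3 (18.9%) were past 1.5-fold, in *Nav1* KO *Gjb6* higher and *Gjc3* lower. Within excitatory neuron-like nuclei *Gjd2* was 3.71 times (1.38 to 12.5) and 2.87 times (0.992 to 10.1), from 5 counts in C57BL/6J. There 6 of 6 members (15.4% of genes) were past 1.5-fold in *Nav1* KO and 2 of 5 (21.4%) in BTBR. In *Nav1* KO *Gjc3* was lower, at 0.639 times (0.416 to 0.976), and the others higher. *Gjb1* among them, from 15 and 7 counts, had an interval that held 1 (0.663 to 5.01). Both in BTBR, *Gja1* and *Gjd2*, were higher. Within mitral or tufted-like nuclei *Gjd2* was 0.591 (0.217 to 2.25) and 0.761 times (0.268 to 2.97), from 4 counts in C57BL/6J. There 2 of 3 members (38.2% of genes) and 0 of 2 (40.5%) were past 1.5-fold. The 2 in *Nav1* KO were *Gjd2* and *Gjc3*, both lower. *Gjc3* was 0.402 times (0.123 to 2.07), from 3 counts in C57BL/6J. All these intervals held 1. *Gja1*, with 37 counts in *Nav1* KO and 0 in C57BL/6J, was set there against the floor of 3 counts.

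The other genes of the pathway were read from fixed lists. Of the 14 other connexins 4 had at least 50 counts. *Gja4* and *Gjc1*, connexins of vessel walls, were highest in endothelial-like nuclei, at 55.3 CPM (28 counts) and 80.9 CPM (41 counts). That cluster also carried markers of pericytes or smooth muscle. *Gja6* had 217 counts with no class above 3.14 CPM. Of the 3 pannexins, which form channels in a single membrane, 2 had at least 50 counts. *Panx1* reached 24.4 CPM in olfactory bulb interneuron-like nuclei and *Panx2* 22.2 CPM in cortical interneuron-like nuclei. The scaffold gene *Tjp1* was highest in the *Slc6a13* cluster at 176 CPM, and *Ccn3*, whose product binds connexin 43, in the *Slc47a1* cluster at 308 CPM. *Mlc1*, a gene of astrocyte end-feet, was highest in astrocyte-like nuclei at 136 CPM.

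Across 48 points, each of 16 classes in each of 3 libraries, the genes with the most similar pattern to each member were found by the Pearson correlation of log2(CPM + 5). The points share libraries, depth and released RNA, so the values describe likeness and carry no test. *Gja1* was most like *Fzd2* (r = 0.968), *Id3* (0.950) and *Bcl2l12* (0.944). *Gjb6* was most like *Col1a2* (0.946), *Cped1* (0.943) and *Fzd2* (0.943), and *Gjb2* most like *Gm4951* (0.942), *Osr1* (0.935) and *Pcolce* (0.931). *Col1a2* and *Pcolce* serve collagen, which fibroblasts make. *Gjb1* was most like *Bfsp2* (0.889), *Myrf* (0.860) and *Gm16168* (0.856), and *Gjc3* most like *Sox10* (0.918), *Bcas1* (0.883) and *Ankrd28* (0.872). *Sox10* and *Myrf* are transcription factors of the oligodendrocyte lineage. The genes like *Gjd2* included the overlapping gene *A530058N18Rik* (0.784) and *Baiap2l2* (0.766). Among the members themselves, *Gja1* and *Gjb6* had r = 0.910, *Gjb2* and *Gjb6* 0.875, *Gjb1* and *Gjc3* 0.771, and *Gja1* and *Gjb2* 0.718.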

How the data were processed

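The authors deposited 1 filtered matrix per library of raw counts, that is UMIs per gene and nucleus from 10x 3′ libraries, made with Cell Ranger 6.0.0 and the mm10 build, per the labels. No normalized values were used. Libraries held 15402 (C57BL/6J), 14623 (*Nav1* KO) and 15238 (BTBR) barcodes. Genes had to be seen in 3 or more nuclei of a library, and a nucleus was kept with 200 or more genes and less than 10% of its counts from mitochondria, which left 14630, 14056 and 14777 nuclei with 38704723, 50965774 and 48939692 counts. The series text states the filtered numbers for the first and second library, and for BTBR the number of barcodes before this filter.

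Counts were scaled to 10000 per nucleus and log-transformed, and 30 principal components of 2000 variable genes, without connexins, gave Louvain clusters at resolution 1, with 20 neighbors and the libraries merged without integration. Of 31 clusters 23 were named, 4 were mixed and 4 were left unnamed. A glial, meningeal or vascular list named a cluster when its genes had a median of at least 2-fold over the other clusters. At least 1 had to be among its 10 leading genes. Such a cluster was mixed when the next list reached 3-fold. It was also mixed when its *Slc17a7* was at least 2-fold that of the lowest cluster led by the same list. The endothelial-like cluster was kept although pericyte or smooth muscle markers came next at 17.8-fold. Other clusters were split by the ratio of *Slc17a7* plus *Slc17a6* to the inhibitory markers *Gad1* plus *Gad2*. At least 10 made them excitatory and 1 or less inhibitory. Neuron subtypes and mitral or tufted-like nuclei were named from list genes among those leading. These thresholds were set after clusters were seen, and the 6 genes, the marker lists and the pathway lists were chosen with earlier results of these data known. Some differences from the study may come from these rebuilt names. The study's 10 components and resolution 0.3 were an alternative. No doublet caller was run. An alternative left out nuclei with UMIs of the markers of another class.

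Counts were summed per class and library and given as CPM with exact Poisson intervals, ratios with intervals from the exact binomial split of both counts, and shares with exact Clopper-Pearson intervals after thinning to 1000 UMIs, which left out 5739 nuclei, all at 95%. A gene with 0 counts was given a floor of 3 counts per library for ratios. Intervals cover counting error only, and there was no test, since each group was 1 library. Genes named are the 6 members, fixed lists of other connexins, pannexins and junction partners (*Nov* is not listed under that name), and the 3 genes most alike to each member, among genes with at least 50 counts and in at least 1% of nuclei of its highest class. Positions came from GENCODE M21 and promoters from RefSeq on GRCm38.p6, where all 6 genes matched. Levels of different genes were not compared, since 3′ counting efficiency differs between genes. Some genes of these lists are not reported here. Alternatives are in the closing section, and the scripts were tested on simulated data. Python 3.11.15, numpy 2.4.6, scipy 1.17.1, pandas 2.3.3, igraph 0.11.9 and matplotlib 3.10.9 were used.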

Additional observations from a re-analysis of the deposited data

How the results depend on the processing

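The 3 libraries hold 1 sample of each group, so a value was called moved when it left its own 95% counting interval. Of 112 ratios between classes under the alternatives 72 stayed within it, of 120 ratios between libraries 99, and of 12 shares 1. Another 22 could not be computed, because a class held no nuclei under that setting. A ratio is said to turn when it lies on the other side of 1. No paired analysis was possible because every label carries the same replicate number and each group has 1 library. What depth limits most is *Gjb1* and *Gjd2*, with 204 and 361 counts in all.

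At clustering resolution 2 the fibroblast to astrocyte ratio was 0.778 for *Gja1* and 3.86 for *Gjb6*, the *Gjb1* ratio of oligodendrocytes to neurons 186, the *Gjc3* ratio of oligodendrocytes to ensheathing glia 7.53, the *Gjc3* ratio of BTBR to C57BL/6J 1.02, and the *Gjc3* ratio of precursors to oligodendrocytes turned to 0.717. With classes taken from the marker UMIs of each nucleus, the fibroblast to astrocyte ratios were 1.88 for *Gja1*, turned, and 5.29 for *Gjb6*, the ensheathing glia to astrocyte ratio of *Gja1* 0.787, *Gjb1* in oligodendrocytes over neurons 30.2, *Gjc3* in oligodendrocytes over ensheathing glia 3.90 and *Gjd2* in inhibitory over excitatory neurons 6.02. Under the same setting the *Nav1* KO and BTBR ratios were 2.21 and 2.20 for *Gja1* and 2.40 and 1.30 for *Gjb6* in astrocytes (*Gjb6* turned in both), 0.796 for *Gjb2* in BTBR fibroblasts, turned, 1.35 and 1.06 for *Gjc3* in oligodendrocytes, and 0.956, turned, and 1.49 for *Gjd2* in neurons. Of the 4403 nuclei this setting called astrocyte-like, 27.9% came from the astrocyte-like cluster, 30.6% from mixed clusters and 16.6% from excitatory clusters.

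Without 23029 nuclei that held markers of another class, *Gja1* was 0.836 for fibroblasts to astrocytes and 0.378 for ensheathing glia to astrocytes, *Gjb1* 157 for oligodendrocytes to neurons, *Gjc3* 20.8 for oligodendrocytes to ensheathing glia and, turned, 0.842 for precursors to oligodendrocytes. With each library clustered alone the corresponding ratios were 0.700 for *Gja1* and 2.07 for *Gjb6* in fibroblasts to astrocytes, 3.82 for *Gjc3* in oligodendrocytes to ensheathing glia and 0.954, turned, in precursors to oligodendrocytes. The ratios to C57BL/6J were then 0.324 and 0.330 for *Gjb2* in fibroblasts, 0.741 for *Gjb1* in BTBR oligodendrocytes, and 0.481 and 0.574 for *Gjc3* in *Nav1* KO and BTBR oligodendrocytes, all turned. In that setting the C57BL/6J fibroblast class was of the *Slc6a13* type and those of the other libraries of the *Slc47a1* type, C57BL/6J had no ensheathing glia-like class, and its oligodendrocyte class held 236 nuclei. As the mean over nuclei, the ratios were 0.696 for *Gja1* and 3.59 for *Gjb6* in fibroblasts to astrocytes, 0.563 for *Gja1* in ensheathing glia to astrocytes, 3.82 for *Gjc3* in oligodendrocytes to ensheathing glia, 1.03 and 1.02 for *Gjc3* in *Nav1* KO and BTBR oligodendrocytes, and 0.925, turned, in precursors to oligodendrocytes. With the study's settings *Gjb2* was 2.18 in *Nav1* KO and 2.01 in BTBR fibroblasts, and no astrocyte-like, precursor-like or ensheathing glia-like class was left.

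Chosen after seeing the data, the *Slc6a13* cluster alone gave a *Gjb6* ratio to astrocytes of 4.99 and the *Slc47a1* cluster alone 1.85, with 8.81 for *Gjb2*, and *Gjd2* without the olfactory bulb-like neurons was 1.24 in *Nav1* KO and 1.84 in BTBR. Leaving out nuclei with shared barcodes turned no ratio. Shares of nuclei at 500 UMIs and without thinning were 21.1% and 45.7% for *Gja1*, 15.7% and 33.5% for *Gjb6*, 5.93% and 13.4% for *Gjb2*, 33.4% and 67.2% for *Gjc3* and 0.343% and 1.73% for *Gjd2*, and 6.10% for *Gjb1* without thinning.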

Other observations

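The 4 mixed clusters held several of the connexins. A cluster of 469 nuclei led by fibroblast markers, with astrocyte markers next, held 377 CPM of *Gja1*, 219 of *Gjb6* and 61.3 of *Gjb2*. A cluster of 281 nuclei led by *Slc6a13*, with 559 CPM of *Slc17a7*, held 88.6 CPM of *Gja1*, 135 of *Gjb6* and 50.1 of *Gjb2*. A cluster of 789 nuclei led by astrocyte markers, with 477 CPM of *Slc17a7*, held 163 CPM of *Gja1*. The 1037 nuclei led by the microglial genes *C1qa*, *C1qc* and *Csf1r*, in which oligodendrocyte markers came next, held 134 CPM of *Gja1* and 220.1 CPM of *Gjc3*. These clusters made up 3.53% of the C57BL/6J nuclei, 7.51% of those of *Nav1* KO and 6.79% of those of BTBR.

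*Gjc3* in endothelial-like nuclei rested on few nuclei. It had 9 counts in 5 *Nav1* KO nuclei and 35 counts in 4 BTBR nuclei, and 0 counts among the C57BL/6J nuclei.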
